A study of Homo sapiens with 8 samples.

Results

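TRO and 7 other genes that encode proteins with a MAGE domain were followed through 8 long-read RNA libraries of H1, a human embryonic stem cell line in long use. The members were chosen by name: TRO, MAGED1, MAGED2, MAGED4, MAGED4B, MAGEH1, NDN and MAGEL2, wherever the combined transcript assembly names a transcript for the gene. They are 8 of 20195 named genes and hold 60 of 96614 listed transcripts. TRO was chosen for its transcript shares: it ranked 1 of 2638 genes in the test of transcript choice in ectoderm and in mesoderm against undifferentiated cells. Its values are therefore given as a description without a test. Of the other 7 genes, taken as relatives by name, the 5 that passed a filter on low counts were tested.

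All cells were H1 with no genetic change given in the labels, and each group had 2 repeats. The hPSC group was undifferentiated H1 kept in mTeSR1 on Matrigel. The 3 differentiated groups were collected after 5 days. Endoderm cells were grown in RPMI with WNT3A, Activin A and serum. Mesoderm cells were grown in DMEM/F12 with VEGF, BMP4 and bFGF, and with Activin A for the first 24 h. Ectoderm cells were grown in DMEM/F12 with KOSR and the inhibitors A83-01, PNU-74654 and Dorsomorphin. The groups thus stand for 1 cell line each under a different medium. Nothing in the labels says that repeats came from separate cultures, so the p-values measure the spread between these libraries, which may be technical.

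MAGE proteins share a domain that binds RING-type ubiquitin ligases and can steer or strengthen them. TRO encodes trophinin, named for its part in adhesion of the embryo to the uterine lining, and its end is built from short repeated peptides. MAGED1, also called NRAGE, binds the neurotrophin receptor p75 and homeodomain proteins such as MSX2. MAGED2 supports salt transporters of the kidney. NDN, which encodes the growth suppressor necdin, and MAGEL2 lie in the imprinted region of chromosome 15 that is linked to Prader-Willi syndrome and are expressed from the paternal copy.

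Library totals ran from 503840 to 1180888 counts. The limit set by a count of 0, 3 counts, is 2.54 to 5.95 CPM, the count scaled to the library total. The 2 hPSC libraries stood further apart than the other repeats: the chi-square per degree of freedom between repeats was 7.62 in hPSC and 1.59 to 2.18 in the other groups. Differences of the members from hPSC are therefore also given without each hPSC library. Those fits leave 1 hPSC library, and its spread is taken from the other groups. Their calls and adjusted p-values therefore do not measure the spread of hPSC. Endoderm markers summed to 2271 and 2387 CPM in endoderm and to 0.847 CPM or less in hPSC and ectoderm, and ectoderm markers summed to 657 and 852 CPM in ectoderm and to 0 in hPSC. Pluripotency markers summed to 3238 and 3559 CPM in hPSC and to 1662 and 1957 CPM in endoderm. They summed to 1244 and 1626 CPM in ectoderm and to 272 and 290 CPM in mesoderm. The mesoderm list summed to 1056 and 1149 CPM in mesoderm and to 111 and 169 CPM in endoderm. Of the 7 genes in the mesoderm list, 4 were tested. Of these, 1 was called higher in endoderm than in mesoderm and 3 lower, where 47.1% of all tested genes were called. A list of 7 amnion and trophoblast markers summed to 6163 and 6843 CPM in mesoderm, against 9.31 to 78.6 CPM elsewhere. Of those 7 genes, 5 passed the filter on low counts, most of them through their mesoderm reads, so no count of calls is read from them. Their part in the mesoderm values below was not tested. In bulk RNA, fewer cells of a type and less RNA per cell cannot be told apart.

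Of the 8 genes, 5 are built alike, and their shared exons are shown first. An intron of TRO described below starts right after the 43-nt one of these exons. The other introns, exons and starts compared below lie outside the shared exons. TRO (chrX:54920792-54931431, plus strand), MAGED1 (chrX:51803007-51902354, plus), MAGED2 (chrX:54807732-54816015, plus), MAGED4 (chrX:52184876-52192268, plus) and MAGED4B (chrX:52029328-52069219, minus) lie on the X chromosome, GRCh38. Each carries a run of 7 exons of 64, 80, 92, 80, 43, 63 and 115 nt, except that the third is 95 nt in MAGED2. Over the run, TRO shared 81.5% of bases with MAGED2, 80.1% with MAGED4 and 78.8% with MAGED1. The 43-nt exon, read from GENCODE 29 transcripts, is printed with capitals at the bases that differ from TRO:
TRO: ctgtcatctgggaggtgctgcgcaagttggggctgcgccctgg
MAGED2: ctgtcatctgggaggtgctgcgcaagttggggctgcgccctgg
MAGED1: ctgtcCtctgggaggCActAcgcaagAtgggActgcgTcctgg
MAGED4: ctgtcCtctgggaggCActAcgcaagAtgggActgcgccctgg
MAGED4B: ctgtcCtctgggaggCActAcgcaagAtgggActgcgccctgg
TRO and MAGED2 are identical there, MAGED1 differs from TRO at 7 of 43 bases, and MAGED4 and MAGED4B differ from TRO at 6. MAGED4 and MAGED4B are inverted copies of each other. Their main transcripts of 2578 nt were identical at 2578 of 2578 bases, so how reads were divided between them is uncertain, and their sum is given too.

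The introns of TRO that carry its changes are shown by their borders, with 20 bases of exon in lower case and 20 bases of intron in capitals. The first is the 417-nt intron at chrX:54926626-54927042, just after the 43-nt exon. The other is a stretch of 2030 nt at chrX:54928711-54930740 inside a long exon of repeats. It starts with GC and ends with AG.
TRO 417-nt intron, start: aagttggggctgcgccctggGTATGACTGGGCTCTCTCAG
TRO 417-nt intron, end: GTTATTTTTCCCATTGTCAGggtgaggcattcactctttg
TRO repeat stretch, start: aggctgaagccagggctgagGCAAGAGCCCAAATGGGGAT
TRO repeat stretch, end: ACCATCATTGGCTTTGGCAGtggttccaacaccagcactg
The repeat stretch encodes the repeated peptides. Shifted against itself by 30 nt, 59.9% of its bases matched, the highest share of all shifts from 3 to 90 nt. The word GGCTTTGG occurs 12 times in it, and 10 of the 11 gaps between neighbours are multiples of 30 nt. A stretch of 120 bases at chrX:54929994-54930113 shows the repeat, with that word in capitals:
TRO repeats: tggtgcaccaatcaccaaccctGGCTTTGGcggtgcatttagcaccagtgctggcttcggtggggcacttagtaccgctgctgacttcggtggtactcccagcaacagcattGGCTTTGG

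TRO was highest in ectoderm and endoderm and about as high in mesoderm as in hPSC. Its level was 350 and 495 CPM in hPSC, 815 and 834 in endoderm, 828 and 901 in ectoderm, and 527 and 361 in mesoderm. The ranges of ectoderm and endoderm overlapped each other and lay above those of hPSC and mesoderm, which also overlapped. The mean was 2.05 times that of hPSC in ectoderm, 1.95 times in endoderm and 1.05 times in mesoderm on the CPM scale. The order depends on the scale. With TMM scaling, which corrects for library composition, TRO had 691 and 746 CPM in ectoderm and 1112 and 1213 in endoderm, and the fitted log2 differences from hPSC were 0.57 ± 0.33 (SE) in ectoderm, 1.27 ± 0.33 in endoderm and -0.20 ± 0.33 in mesoderm. Without hPSC repeat 1 these became 0.22, 0.93 and -0.55, and without hPSC repeat 2 they became 1.10, 1.73 and 0.26. The libraries also differed in the length of what was read: the mean transcript length per read was 2975 and 3073 nt in endoderm, 3114 and 3298 nt in hPSC, 3765 and 3840 nt in mesoderm, and 4406 and 4650 nt in ectoderm. With the trend of the fold change with transcript length removed, the TRO difference from hPSC was 0.14 in ectoderm and 1.40 in endoderm, so the ectoderm value moved most.

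**Figure D1:**
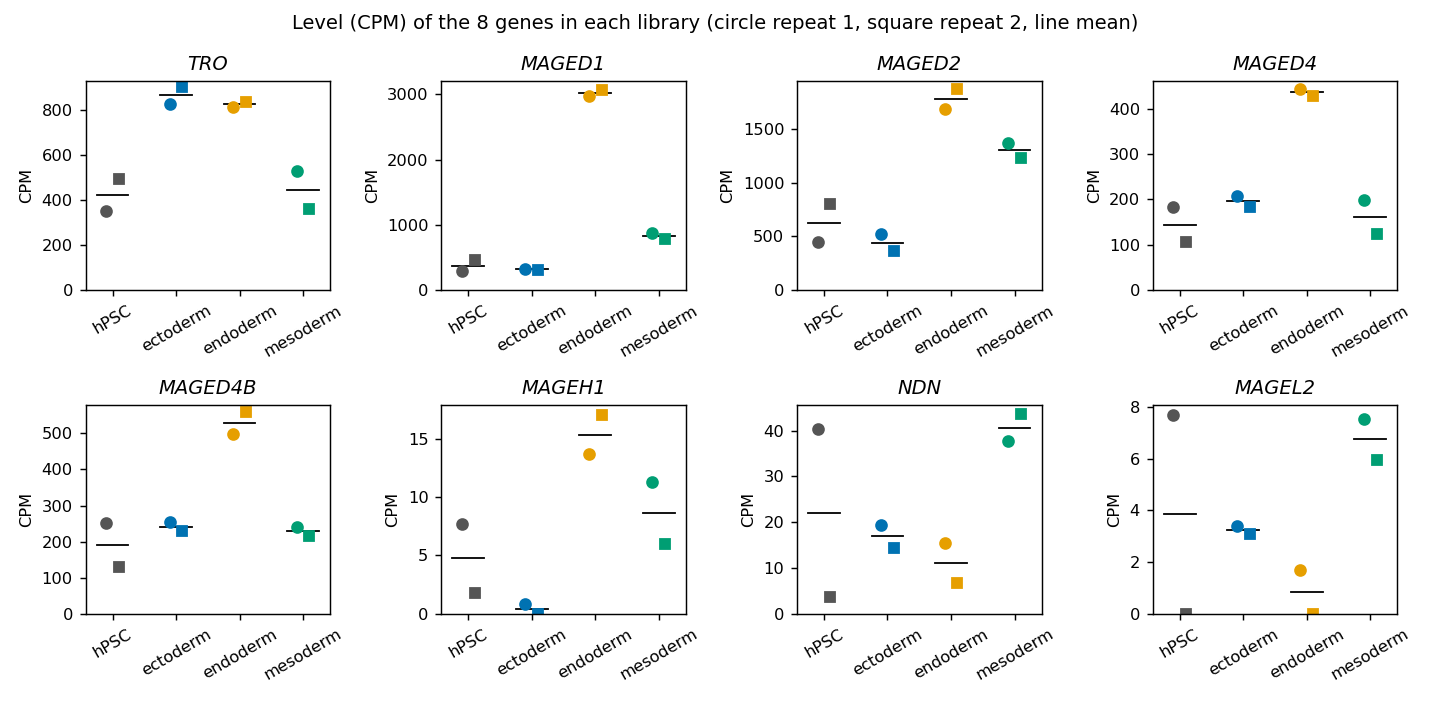
Each panel plots 1 gene, with CPM on the y axis and the 4 groups on the x axis; circles are repeat 1, squares repeat 2, and lines the mean of both. MAGED1, MAGED2, MAGED4 and MAGED4B are highest in both endoderm libraries, TRO is high in ectoderm and endoderm, and NDN spans 3.56 to 40.4 CPM within hPSC.

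The reads of TRO in mesoderm mostly kept the 417-nt intron. It was retained in 12.6% and 11.5% of TRO reads in hPSC, 18.9% and 19.8% in endoderm, 32.8% and 29.3% in ectoderm, and 60.4% and 62.1% in mesoderm. The mean ran in this order from 12.1% ± 0.80 (SD, n = 2) to 61.2% ± 1.22, and no group overlapped another. The assemblies built for each group alone gave 10.8% to 12.6% in hPSC and 60.4% to 62.6% in mesoderm. Transcripts classed by the assembly as holding a retained intron made up 1.62% to 1.91% of all reads in hPSC, 1.61% to 1.62% in endoderm, 2.32% to 2.43% in mesoderm and 3.06% to 3.28% in ectoderm. By this class, ectoderm and not mesoderm was highest over the whole library. The class is not the same measure as the TRO event. Most TRO reads that kept the 417-nt intron lie on transcripts of other classes. The most-read TRO transcript (1080 reads) splices this intron and yet belongs to the class. The part of this library-wide share in the TRO values was not tested.

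The long exon of repeats was kept whole in most TRO reads outside mesoderm. It was whole in 78.6% and 84.5% of reads in hPSC, 82.0% and 85.1% in endoderm, 81.3% and 84.2% in ectoderm, and 58.2% and 52.7% in mesoderm. The mesoderm values lay below those of the other groups, which overlapped. Most of the other reads had the repeats spliced out in either of 2 ways, and 1.1% to 1.9% lost only an 81-nt stretch inside the exon. Splicing to a 291-nt exon took 6.6% and 4.7% of reads in hPSC, 12.4% and 9.6% in endoderm, 16.2% and 13.8% in ectoderm, and 35.4% and 41.8% in mesoderm. Splicing past the repeats to the last exon took 13.7% and 9.0% in hPSC and 0.6% to 4.6% elsewhere, so this form was highest in hPSC. In ectoderm the first form rests on the combined assembly, since the ectoderm assembly alone gave 4.1% and 3.4%.

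**Figure D2:**
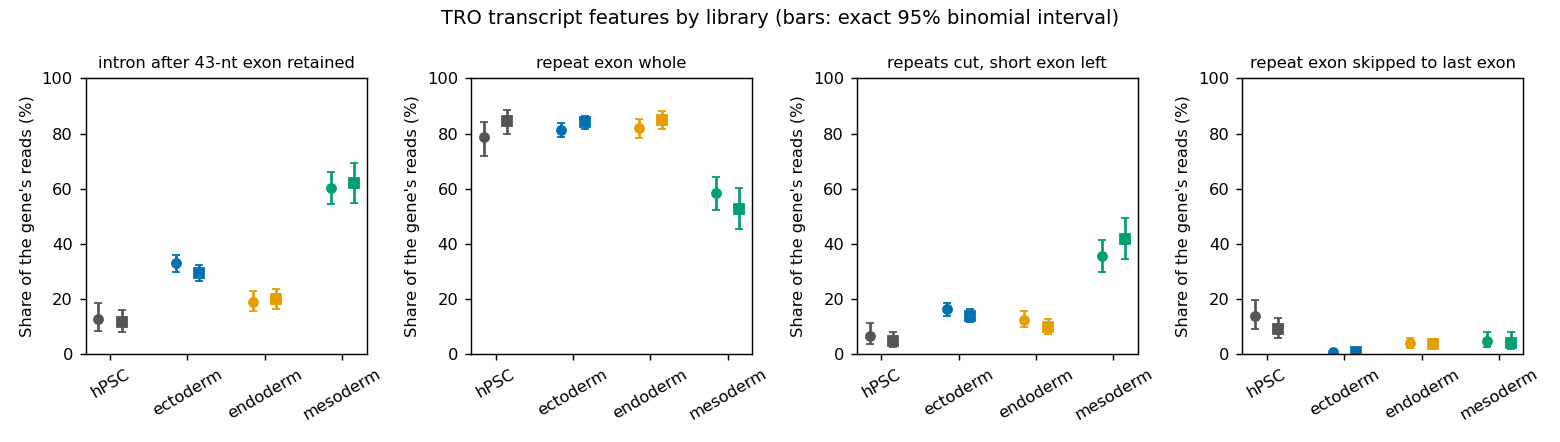
Each panel plots 1 feature of TRO transcripts as a share of the reads of TRO (y axis, %) in the 4 groups (x axis); circles are repeat 1, squares repeat 2, and bars exact 95% binomial intervals, which cover counting error only. Both mesoderm libraries hold the highest shares of the retained 417-nt intron (60.4% and 62.1%) and of the 291-nt exon form, and hPSC holds the highest share of the form that skips to the last exon.

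The events came together on the same transcripts. In mesoderm, 55.0% and 65.5% of the reads that kept the 417-nt intron had the 291-nt exon, against 5.4% and 2.9% of the reads that spliced it. The corresponding shares were 38.3% and 37.6% against 5.3% and 3.9% in ectoderm, 44.4% and 34.0% against 4.9% and 3.6% in endoderm, and 26.1% and 31.3% against 3.8% and 1.2% in hPSC. In every library the 291-nt exon was thus more common on reads with the intron. Reads were placed on assembled transcripts by the authors' counting, and the ectoderm assembly alone held no transcript with both features.

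The forms differ in what their reading frame ends on. From the annotated start codon of TRO, transcripts with the whole repeat exon and a spliced 417-nt intron mostly ran through 1431 codons to a stop at its end. Transcripts that kept the intron and held the annotated start codon in this frame met a stop after 605 codons, 116 nt into the intron. From the last 20 bases of the 43-nt exon into the intron, with that stop in capitals, the sequence at chrX:54926606-54926758 reads:
TRO intron stop: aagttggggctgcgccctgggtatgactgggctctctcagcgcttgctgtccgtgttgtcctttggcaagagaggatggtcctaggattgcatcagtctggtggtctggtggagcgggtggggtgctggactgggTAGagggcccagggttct
The stop lies 477 to 2906 nt before the last exon junction of those transcripts. Reads whose frame ended at this stop were 12.1% and 11.2% of TRO reads in hPSC, 17.4% and 18.8% in endoderm, 31.8% and 28.0% in ectoderm, and 58.2% and 59.3% in mesoderm. Reads whose frame reached the end of the repeats were 61.5% and 72.3% in hPSC, 62.3% and 63.0% in endoderm, 58.8% and 63.4% in ectoderm, and 30.7% and 30.2% in mesoderm. These are frames read from sequence, and no protein was measured.

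**Figure D3:**
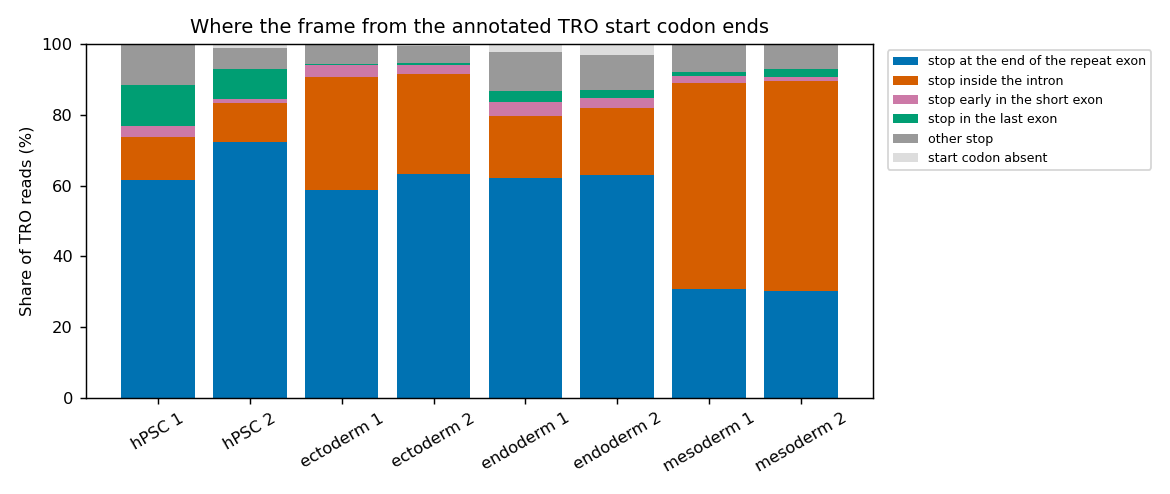
Stacked bars give the share of TRO reads (y axis, %) in each of the 8 libraries (x axis) by where the frame from the annotated start codon ends. The orange class, a stop inside the 417-nt intron, takes 58.2% and 59.3% of mesoderm reads, and the blue class, a stop at the end of the repeat exon, takes 58.8% to 72.3% outside mesoderm.

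Of the 5 tested members, MAGED1 had the largest fitted rise in endoderm. It had 285 and 457 CPM in hPSC, 2972 and 3066 in endoderm, 328 and 308 in ectoderm, and 872 and 786 in mesoderm. The endoderm libraries lay far above all others, mesoderm came next, and hPSC and ectoderm overlapped. In the edgeR fit over all genes, the log2 difference of endoderm from hPSC was 3.32 ± 0.37 (adjusted p = 1.34e-05), of endoderm from mesoderm 2.44 ± 0.36 (adjusted p = 7.85e-05) and of ectoderm from endoderm -4.01 ± 0.38 (adjusted p = 9.45e-07). Ectoderm was also lower than mesoderm, with a log2 difference of -1.57 ± 0.35 (adjusted p = 0.00283). The difference of mesoderm from hPSC, 0.88 ± 0.35, did not pass (adjusted p = 0.0605) and passed under several other settings, DESeq2 among them (adjusted p = 0.0390). The hPSC libraries moved these values: endoderm exceeded hPSC by 2.91 without hPSC repeat 1 and by 3.90 without repeat 2. Mesoderm exceeded hPSC by 1.46 without repeat 2 (adjusted p = 0.000162) and by 0.46 without repeat 1 (adjusted p = 0.185). Ectoderm differed from hPSC by -0.69 ± 0.35 (adjusted p = 0.112), by -1.11 without repeat 1 (adjusted p = 0.000564) and by -0.04 without repeat 2 (adjusted p = 0.917).

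MAGED2 rose in endoderm and was lowest in ectoderm. It had 447 and 802 CPM in hPSC, 1686 and 1868 in endoderm, 517 and 362 in ectoderm, and 1371 and 1227 in mesoderm. Endoderm and mesoderm lay above hPSC and ectoderm, which overlapped. The log2 difference from hPSC was 1.79 ± 0.38 in endoderm (edgeR adjusted p = 0.00262), 0.77 ± 0.37 in mesoderm (adjusted p = 0.120) and -0.98 ± 0.37 in ectoderm (adjusted p = 0.0395). The ectoderm call was lost when any library other than hPSC repeat 1 was left out. The ectoderm difference from hPSC was -1.45 without hPSC repeat 1 and -0.22 without hPSC repeat 2. With the trend of the fold change with transcript length removed it was -0.12 (adjusted p = 0.807). The endoderm rise was 1.34 without hPSC repeat 1 and 2.49 without repeat 2. Mesoderm exceeded hPSC by 1.46 without repeat 2 (adjusted p = 0.000167) and by 0.29 without repeat 1 (adjusted p = 0.405). Endoderm exceeded mesoderm by 1.02 ± 0.37 (adjusted p = 0.0322), a call that was lost when either endoderm or either mesoderm library was left out (adjusted p from 0.0629 to 0.148). Ectoderm was lower than endoderm, with a difference of -2.78 ± 0.39 (adjusted p = 2.52e-05), and lower than mesoderm, with -1.75 ± 0.38 (adjusted p = 0.00223).

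MAGED4 and MAGED4B, whose main transcripts are identical, rose in endoderm alike. Their sum was 435 and 235 CPM in hPSC, 943 and 986 in endoderm, 463 and 411 in ectoderm, and 439 and 339 in mesoderm. Endoderm stood above the 3 other groups, and those 3 overlapped. MAGED4 differed from hPSC by 1.96 ± 0.32 in endoderm (adjusted p = 0.000411) and MAGED4B by 1.84 ± 0.31 (adjusted p = 0.000490). Without an hPSC library these differences were 1.75 to 2.24 for MAGED4 and 1.57 to 2.21 for MAGED4B. The differences of ectoderm and mesoderm from hPSC lay between -0.04 and 0.06 for these genes, with SEs of 0.30 to 0.33, and between -0.27 and 0.42 without an hPSC library, with no call.

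NDN and MAGEL2, on chromosome 15, were read rarely, and MAGEH1, at chrX:55452107-55453566 on the X chromosome, was too. NDN (chr15:23685391-23687305) had 21 and 2 reads in hPSC, 9 and 4 in endoderm, 23 and 14 in ectoderm, and 20 and 22 in mesoderm. The hPSC repeats thus held 40.4 and 3.56 CPM, and every NDN difference from hPSC turned on which of them was used: mesoderm differed from hPSC by 0.72 ± 0.57 (adjusted p = 0.347), by 3.06 without repeat 1 (adjusted p = 0.00128) and by -0.08 without repeat 2 (adjusted p = 0.922). Ectoderm differed from hPSC by -0.71 ± 0.59 (adjusted p = 0.335), by 1.65 without repeat 1 (adjusted p = 0.122) and by -1.43 without repeat 2 (adjusted p = 0.0114). Endoderm differed by -0.58 ± 0.70 (adjusted p = 0.588), by 1.79 without repeat 1 (adjusted p = 0.179) and by -1.36 without repeat 2 (adjusted p = 0.0466). Between layers, ectoderm was lower than mesoderm, with a difference of -1.42 ± 0.52 (adjusted p = 0.0452), a call that DESeq2 did not make (adjusted p = 0.218) and that ended when any ectoderm, endoderm or mesoderm library was left out. MAGEL2 (chr15:23643546-23647907) had 4 and 0 reads in hPSC, 1 and 0 in endoderm, 4 and 3 in ectoderm, and 4 and 3 in mesoderm, too few to compare. MAGEH1 had 4 and 1 reads in hPSC, 8 and 10 in endoderm, 1 and 0 in ectoderm, and 6 and 3 in mesoderm. Its pooled CPM in endoderm was 3.32 times that of hPSC, with a 95% interval from 1.19 to 11.4 that covers counting error only. MAGEH1 and MAGEL2 did not pass the filter on low counts.

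Of the 7 members other than TRO, 5 passed the filter, and they were called by edgeR at an adjusted p under 0.05 as follows. In endoderm against hPSC 4 of 5 rose, where 13.4% of the 10847 tested genes rose and 27.2% were called. In ectoderm against hPSC 1 of 5 was called and was lower, where 24.8% of genes were lower and 48.6% were called. In mesoderm against hPSC 0 of 5 were called, with 1 at an unadjusted p under 0.05 and 1 called by DESeq2, where 35.1% of genes were called. In ectoderm against endoderm 4 of 5 were lower, where 29.9% of genes were lower and 63.1% were called. In ectoderm against mesoderm 3 of 5 were lower (17.2% of genes lower, 35.4% called), and in endoderm against mesoderm 4 of 5 were higher (23.2% of genes higher, 47.1% called). MAGED4 and MAGED4B count as 2 in these numbers although the division of reads between them is uncertain. The comparisons share groups, so they do not repeat one another independently.

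**Figure D4:**
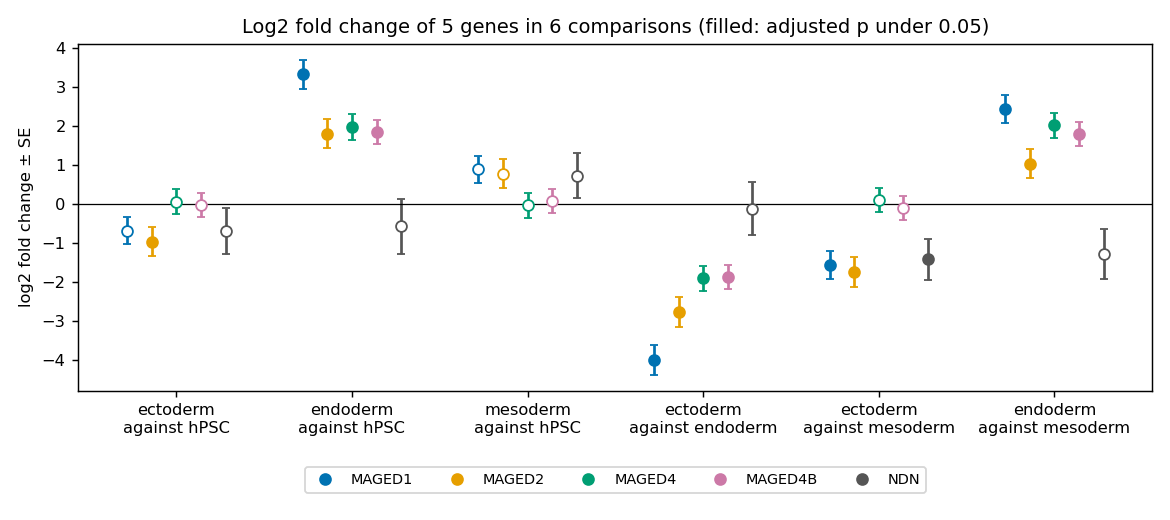
The y axis gives the fitted log2 fold change with its SE for 5 genes in each of the 6 comparisons on the x axis; filled points have an adjusted p under 0.05. MAGED1, MAGED2, MAGED4 and MAGED4B are filled and above 0 in endoderm against hPSC, from 1.79 to 3.32.

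MAGED2 and MAGED1 each have an upstream and a downstream start, and the use of both differed between the groups. The alternative starts change only the untranslated first exon, and the annotated start codon is the same. The promoters, 250 bases before to 50 after each RefSeq start on GRCh38.p14, are printed because the counts bear on them. Capitals mark ACTTCCGG, a word bound by ETS-family factors, or GCATGCGC, a core of the word bound by NRF1, on either strand; where the NRF1 core lies on both strands its copies overlap:
MAGED2 upstream, chrX:54807495-54807794: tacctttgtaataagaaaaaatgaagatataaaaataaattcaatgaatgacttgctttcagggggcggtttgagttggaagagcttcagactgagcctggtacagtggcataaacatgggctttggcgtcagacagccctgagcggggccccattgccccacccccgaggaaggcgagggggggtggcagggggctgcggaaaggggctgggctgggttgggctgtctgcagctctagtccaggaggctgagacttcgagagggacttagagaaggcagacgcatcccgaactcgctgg
MAGED2 downstream, chrX:54808096-54808395: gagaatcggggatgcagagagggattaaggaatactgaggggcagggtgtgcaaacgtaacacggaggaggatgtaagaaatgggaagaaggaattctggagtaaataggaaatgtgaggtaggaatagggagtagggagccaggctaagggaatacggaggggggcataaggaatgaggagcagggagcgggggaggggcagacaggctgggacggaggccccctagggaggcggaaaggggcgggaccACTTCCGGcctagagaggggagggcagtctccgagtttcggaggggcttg
MAGED1 upstream, chrX:51802826-51803125: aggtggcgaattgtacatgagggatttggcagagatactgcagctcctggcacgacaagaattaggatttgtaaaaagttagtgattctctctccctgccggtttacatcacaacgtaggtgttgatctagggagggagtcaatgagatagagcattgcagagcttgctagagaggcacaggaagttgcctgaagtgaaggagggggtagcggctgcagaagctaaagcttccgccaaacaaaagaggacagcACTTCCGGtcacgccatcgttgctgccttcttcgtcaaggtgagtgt
MAGED1 downstream, chrX:51893373-51893672: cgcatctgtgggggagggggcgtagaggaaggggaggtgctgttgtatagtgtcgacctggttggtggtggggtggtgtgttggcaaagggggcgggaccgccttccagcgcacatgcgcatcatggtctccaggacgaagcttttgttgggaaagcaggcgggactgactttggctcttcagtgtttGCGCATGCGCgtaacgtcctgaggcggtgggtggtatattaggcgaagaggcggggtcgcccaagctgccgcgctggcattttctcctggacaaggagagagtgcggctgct
TRO, chrX:54920574-54920873: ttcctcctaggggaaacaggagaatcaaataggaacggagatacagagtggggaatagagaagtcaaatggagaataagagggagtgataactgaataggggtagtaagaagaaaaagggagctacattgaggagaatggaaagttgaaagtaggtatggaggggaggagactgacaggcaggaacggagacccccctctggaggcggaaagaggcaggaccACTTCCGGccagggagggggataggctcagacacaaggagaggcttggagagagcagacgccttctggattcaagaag
The MAGED2 downstream promoter and the TRO promoter are alike: in a local alignment of 228 positions, 157 were identical (68.9%). ACTTCCGG occurs in both and in the upstream MAGED1 promoter, and in 4.11% of 34943 RefSeq promoters of this length. GCATGCGC occurs in the downstream MAGED1 promoter and in those of MAGED4 and MAGED4B, and in 3.02% of promoters. The upstream MAGED2 promoter holds neither word. A match is a description of letters and not of binding.

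The upstream start of MAGED2 took the larger part of its reads in mesoderm and endoderm and the smaller part in hPSC and ectoderm. Its share of MAGED2 reads was 29.7% and 38.6% in hPSC, 60.1% and 60.9% in endoderm, 29% and 30.9% in ectoderm, and 75.5% and 76.4% in mesoderm. Endoderm and mesoderm did not overlap each other or the other groups, and hPSC and ectoderm overlapped. The exact permutation test over the 105 ways to pair the libraries gave p = 0.0190, adjusted to 0.0476 over 5 features, and 0.00952 is the smallest p it can give. The share of MAGED1 reads from its upstream start was 20.9% and 23.3% in hPSC, 16.3% and 15.4% in ectoderm, 9.3% and 9.8% in mesoderm, and 6.3% and 7.0% in endoderm (exact permutation p = 0.00952, adjusted 0.0476). The groups did not overlap. Endoderm thus had the highest level of MAGED1 and the lowest share of its upstream start. The upstream transcript itself had 110 and 125 reads in endoderm, against 31 and 60 in hPSC.

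In MAGED4 and MAGED4B together, a 411-nt intron at chrX:52187231-52187641 in MAGED4 was retained in 23.0% and 15.2% of reads in hPSC, 13.6% and 16.4% in endoderm, 35.3% and 37.4% in ectoderm, and 23.6% and 27.5% in mesoderm. Ectoderm lay above the other groups (exact permutation p = 0.0286, adjusted 0.0476), and ectoderm was also the group with the most reads of retained-intron class in the whole library. The endoderm assembly alone held no such transcript. The extra exon of MAGED1, the fifth feature compared, did not pass (exact permutation p = 0.981). The last intron of MAGED2 was retained in 21.6% and 15.7% of reads in hPSC, 7.1% and 4.7% in endoderm, 18.3% and 18.9% in ectoderm, and 7.6% and 7.4% in mesoderm (exact permutation p = 0.0667, adjusted 0.0833), which did not pass. The ectoderm, endoderm and mesoderm assemblies alone held no transcript with it.

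**Figure D5:**
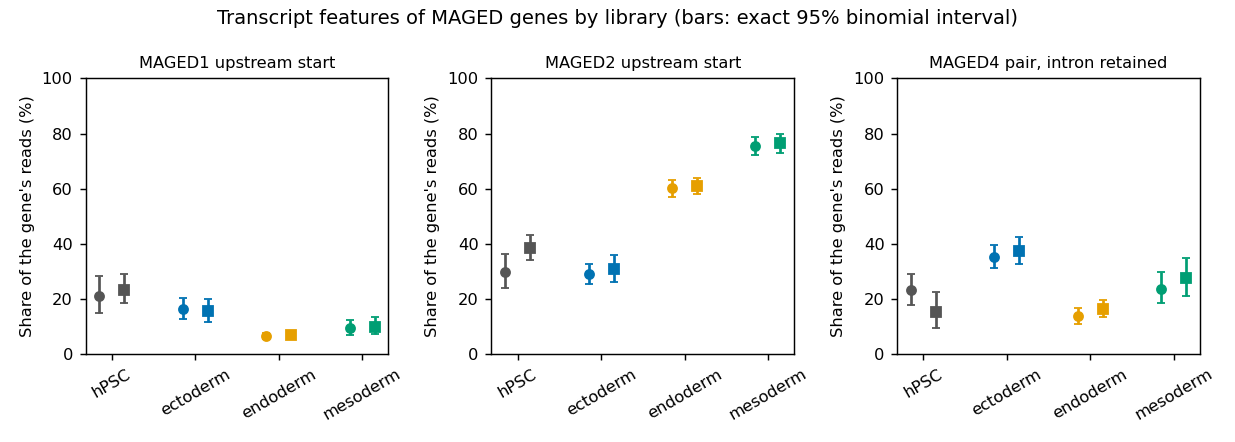
The panels give the share of reads (y axis, %) from the upstream starts of MAGED1 and MAGED2 and with the 411-nt intron of the MAGED4 pair, in the 4 groups (x axis); circles are repeat 1, squares repeat 2, and bars exact 95% binomial intervals. The MAGED2 share lies between 29% and 38.6% in hPSC and ectoderm and between 60.1% and 76.4% in endoderm and mesoderm.

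The fit of transcript choice over 2638 genes tested MAGED1, MAGED2, MAGED4 and MAGED4B. In endoderm against hPSC 2 of the 4 were called, MAGED2 (edgeR adjusted p = 0.0162) and MAGED1 (adjusted p = 0.0194), where 4.97% of genes were. In mesoderm against hPSC 1 was called, MAGED2 (adjusted p = 0.00159), where 6.97% of genes were. In ectoderm against hPSC 0 were called, with 1 at an unadjusted p under 0.05 and 0 by limma, where 5.84% of genes were called. In ectoderm against endoderm 3 were called, MAGED2 (adjusted p = 0.00186), MAGED4 (adjusted p = 0.00369) and MAGED4B (adjusted p = 0.00680), where 14.7% of genes were. Here too, MAGED4 and MAGED4B count as 2 although the division of reads between them is uncertain. In ectoderm against mesoderm 1 was called, MAGED2 (adjusted p = 0.000379), where 6.03% of genes were, and in endoderm against mesoderm 0 were called, with 1 at an unadjusted p under 0.05 and 0 by limma, where 9.93% of genes were. The calls against hPSC were kept without either hPSC library, in fits that do not measure the spread of hPSC. Without repeat 1 MAGED1 was also called in mesoderm. MAGED2 in endoderm against mesoderm and MAGED1 in ectoderm against endoderm were called without either hPSC library, although hPSC is in neither comparison. Those 2 results thus turned on the hPSC libraries in the shared fit. The MAGED2 calls against hPSC were lost when either library of the layer was left out (adjusted p up to 0.337 in endoderm and 0.0926 in mesoderm), and the endoderm call also without either mesoderm library (adjusted p = 0.0542 and 0.0546). The MAGED1 call in endoderm against hPSC was lost when any ectoderm, endoderm or mesoderm library was left out. In ectoderm against endoderm, MAGED4 was lost without either ectoderm library or endoderm repeat 1, MAGED4B without any of those 4 libraries and MAGED2 without endoderm repeat 2, with adjusted p from 0.0924 to 0.268.

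Among genes with a pattern like that of TRO, measured as the root mean square difference of gene-centred log2 CPM over the 8 libraries, the 5 nearest of 10524 genes were ELMO2 (0.163), PLXNB1 (0.197), RBM8A (0.205), SLC30A7 (0.212) and POM121C (0.217). The median gene was at 1.05. The nearest member was MAGED4, at rank 611 (0.55).

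Genes that bear on the members by role or position were counted in the same fit. Of 27 genes reported to work with MAGE proteins, 20 were tested. The lowest number called was 5 of 20, in endoderm against hPSC, where 27.2% of all genes were called. The highest was 14 of 20, in ectoderm against endoderm, where 63.1% were. Both shares lie near those of all genes. In mesoderm against hPSC 10 of 20 were called, a larger share than the 35.1% of all genes. Without hPSC repeat 1 the share of partners called was not larger than that of all genes. Against hPSC, 6 called partners were higher and 4 lower in ectoderm and in mesoderm, and 1 was higher and 4 lower in endoderm. The partners named next were picked from those that rose. PJA2, a RING ubiquitin ligase, rose against hPSC by a log2 difference of 2.71 in ectoderm (adjusted p = 0.000103) and of 1.64 in mesoderm (adjusted p = 0.00883). VPS26A, a subunit of retromer, rose by 2.02 in ectoderm (adjusted p = 0.000242) and WASHC4, of the WASH complex, by 2.40 (adjusted p = 0.000648). MSX2, the homeodomain partner of MAGED1, had 2 and 0 reads in hPSC, 11 and 13 in endoderm, 6 and 1 in ectoderm, and 186 and 153 in mesoderm. It rose in mesoderm against hPSC (adjusted p = 4.86e-07), where its pooled CPM was 177 times that of hPSC, with a 95% interval from 48.6 to 1468 that covers counting error only. The 20 tested partners had a median log2 difference from hPSC of 0.33 in ectoderm, 0.06 in endoderm and 0.41 in mesoderm, beside -0.01, -0.13 and 0.01 over all genes. Of 8 tested neighbours on 15q11-q13, 5 were called in ectoderm, 2 in endoderm and 5 in mesoderm against hPSC, beside 48.6%, 27.2% and 35.1% of all genes. SNRPN, the splicing-protein gene of the imprinted region, fell by 3.04 on the log2 scale in ectoderm (adjusted p = 3.59e-05) and fell by 3.16 in mesoderm (adjusted p = 2.89e-05), and UBE3A, a ubiquitin ligase, rose by 1.97 in ectoderm (adjusted p = 0.000775) and by 1.37 in mesoderm (adjusted p = 0.0173). Of 13 tested neighbours on Xp11, 5 were called in ectoderm, 4 in endoderm and 3 in mesoderm against hPSC, shares near or below those of all genes. The 4 called in endoderm were higher there: APEX2, PHF8, RRAGB and KLF8, of which KLF8 passed the filter on low counts only through endoderm. Without hPSC repeat 1 the call of APEX2 was lost (adjusted p = 0.0647), and without repeat 2 that of RRAGB (adjusted p = 0.0532). Of the other MAGE genes, 6 of 27 were listed and 2 passed the filter, MAGEE1 and MAGEF1. MAGEE1 fell against hPSC by 2.51 on the log2 scale in ectoderm (adjusted p = 0.0119) and fell by 2.68 in mesoderm (adjusted p = 0.0364), on 0 to 15 reads per library. Without hPSC repeat 2 both MAGEE1 calls were lost (adjusted p = 0.0830 and 0.126), as was that of UBE3A in mesoderm (adjusted p = 0.0538). The calls named above for PJA2, VPS26A, WASHC4, MSX2 and SNRPN were kept without either hPSC library. Those fits do not measure the spread of hPSC.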

How the data were processed

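Polyadenylated RNA from 8 samples was sequenced as long cDNA reads (PacBio Sequel II), per the labels' protocols. The submitters' processing notes name minimap2, StringTie and GRCh38 (hg38), with no versions. The authors deposited raw counts as whole numbers for each assembled transcript, once for the combined assembly and once for the assembly of each group. All deposited columns hold whole counts, so no estimated counts were used and nothing was rounded. Short-read libraries that the labels describe were not analysed here. How reads of near-identical copies were divided is not given in the sources used here. Of 13916 multi-exon transcripts with the same identifier in GENCODE 29, 13909 had the same introns.

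The counts of a gene are sums over the transcripts named for it. The gene test was edgeR's (version 4.0.16, R 4.3.3): filterByExpr with min.count 10, TMM scaling, a quasi-likelihood model of all 8 libraries, glmQLFTest for each pair of groups, and p-values adjusted by Benjamini-Hochberg over 10847 genes, with calls at 0.05. Transcript choice was tested with diffSpliceDGE over 2638 genes. DESeq2 1.42.0 and limma 3.58.1 were alternatives. Tests are two-sided. Shares per library were compared by F over all pairings of the libraries (exact permutation). CPM uses library totals. Sequences came from GENCODE 29 transcripts and RefSeq promoters (GRCh38.p14), and alignments from Biopython 1.88. On simulated data with 4-fold changes in 200 of 10847 genes, the gene test found 79.5% of the changed genes in ectoderm against hPSC, 69% in endoderm and 75% in mesoderm, with 7.56%, 5.48% and 6.83% of calls false. The choice test, over 2638 genes, recovered from 99.5% to 100% of exchanged transcript pairs, with 6.54% to 7.83% of calls false. The exchanged pairs differed at least 4-fold in level, so smaller shifts were not covered. In both simulations all groups had the same spread per gene and few genes were changed. A wider spread in hPSC and changes in many genes at once were therefore not covered.

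The members and lists were chosen with earlier results of these data known. All members were named; a member transcript was named at 10% or more of the gene's reads, or 20% in a group with at least 20 reads; the 5 genes nearest to TRO were named; list members called at least once could be named. Alternatives were other tools and scalings, other filters, other sets of transcripts, a length trend, the replicate block, 2 groups alone and leaving out each library.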

Additional observations from a re-analysis of the deposited data

How the results depend on the processing

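Repeat numbers appear in the labels, but nothing says that they mark shared cultures or days, and the differences between repeats correlated between groups at r from -0.03 to 0.13. The replicate block left 15 of 16 gene-level calls of the tested members, losing MAGED2 in ectoderm against hPSC (adjusted p = 0.0623), and the same 7 calls of transcript choice. It moved the number of genes called for transcript choice in ectoderm against hPSC from 154 to 101.

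Under all alternatives, no called difference of a tested member reversed. Of 509 member comparisons under alternatives, 432 kept their side of the threshold with little movement, 21 uncalled values moved by more than their SE, 32 calls were lost and 24 were gained. Another count, 45 uncalled values that changed sign, falls within these. DESeq2 called fewer genes: 3356, 1836 and 2315 in ectoderm, endoderm and mesoderm against hPSC, 2015 in ectoderm against mesoderm, and 2 among other MAGE genes instead of 5. With only the 2 groups in the fit, mesoderm against hPSC gave 2468. limma gave 99 genes of different transcript choice in ectoderm against hPSC. Only reference-matching transcripts gave 93, 74 and 117 in ectoderm, endoderm and mesoderm against hPSC, 237 in ectoderm against endoderm and 101 in ectoderm against mesoderm, and ended the choice calls of MAGED4 (adjusted p = 0.407) and MAGED4B (adjusted p = 0.873).

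Leaving out each library in turn gave from 3293 to 5960 genes in ectoderm, 1455 to 4067 in endoderm and 2012 to 5084 in mesoderm against hPSC, 5331 to 8205 in ectoderm against endoderm, 1780 to 5631 in ectoderm against mesoderm and 3390 to 6487 in endoderm against mesoderm. For transcript choice it gave 12 to 308, 27 to 246 and 36 to 317 against hPSC in the same order, then 139 to 690, 40 to 384 and 79 to 513. Calls over the 6 comparisons ran from 3 to 9 for other MAGE genes, 48 to 75 for partners, 18 to 29 for 15q11-q13, 19 to 42 for Xp11 and 13 to 20 for the members. With 1 library left in a group, its spread was taken from the other groups. Chosen after seeing the data, leaving out a library gave an exact permutation p of 0.00952 each time for the MAGED1 start, 0.00952 to 0.0286 for the MAGED2 start and 0.0190 to 0.0667 for the MAGED4 intron, and each group's own assembly kept both starts under 0.05. For the MAGED4 intron the own assemblies give no check, since that of endoderm holds no such transcript. Of 45 named transcript shares, 31 moved by more than 1 SD in the group's own assembly.

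Depth limits MAGEH1, MAGEL2 and NDN, with 19 to 115 reads in all. The TMM factors ran from 0.71 in endoderm to 1.30 in ectoderm, and all genes had a median log2 difference of -0.13 in endoderm against hPSC and of 0.19 in ectoderm against endoderm. Upper-quartile scaling moved the latter to 0.43.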
